A study of Rattus norvegicus with 16 samples.

Results

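The comparison described here is TBI vs. Sham in the rat hippocampus 24 h after surgery. It takes in 5 of the 16 arrays of the series, chosen by their group label alone: TBI 1, 2 and 3 and Sham 1 and 2, with 1 rat to an array. All animals were adult male Sprague-Dawley rats, and TBI and Sham rats were anesthetized with isoflurane. TBI rats received a severe parasagittal fluid percussion injury, in which a pulse of saline strikes the intact dura through a craniotomy, and Sham rats were prepared for surgery in the same way without the injury. The hippocampus was dissected whole from each rat and its RNA was amplified and hybridized to a one-colour rat array. The methods name 3 rats per group, and 2 Sham arrays were analysed here. The 3 Naïve arrays, from rats that were neither anesthetized nor handled, are given beside the others as a reference level only. Neither TBI nor Sham rats are labelled with a drug.

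After a blow to the brain, damaged neurons and ruptured vessels release signals that microglia and astrocytes sense within minutes. These glia secrete chemokines and cytokines, astrocytes take on a reactive state, and blood leukocytes enter the tissue over the following day. In parallel neurons lose dendrites and synapses, and in the hippocampus, which forms new memories, this loss underlies much of the lasting deficit after head injury.

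A level is the log2 of a probe's intensity divided by the 75th percentile of the probes well above background on the same array, so that 0 is the level of that percentile. A difference between groups is on the same log2 scale. One limma model was fitted to all 16 arrays, and probes with an adjusted p (Benjamini-Hochberg) under 0.05 are referred to as called. Each gene is represented by its brightest tested probe. Of 22799 probes 2146 (9.41%) were called, 667 higher (2.93%) and 1479 lower (6.49%). Of 13847 genes, 1187 (8.57%) were called in TBI vs. Sham. TBI was higher in 331 of these (2.39% of genes) and lower in 856 (6.18%), and the median difference over all genes was -0.08.

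By the median of the fitted folds, the changes were larger among the genes that rose. The median fold was 3.19 in the genes called higher and 2.18 in those called lower. These medians include genes for which a group was above background on no array. In 325 of the 331 and in 849 of the 856 called genes no TBI array overlapped a Sham array. Genes were called for a gap in these same values, so this follows largely from the call. Over all genes tested 14.3% lay higher on every TBI array and 25.4% lower. All 5 arrays were above background for 193 of the genes called higher. For 96 of them no Sham array was above background, so that only a bound on the fold can be given. Among the genes called lower, 690 were above background on all 5 arrays and 95 on no TBI array.

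Some arrays stood apart from the rest of their group. TBI 1 lay nearest the Sham arrays of the TBI arrays in 271 (81.9%) of the genes called higher and in 628 (73.4%) of those called lower, and without it 829 genes (5.99%) were called higher and 1522 (11%) lower. Sham 1 carried choroid plexus, the tissue that secretes cerebrospinal fluid and adjoins the hippocampus. The summed level of 11 choroid plexus markers, on the linear scale, was 124 on Sham 1 and 4.99 on Sham 2, against 3.60, 0.56 and 0.23 on TBI 1, 2 and 3. Ttr, the thyroid hormone carrier made by this tissue, had a level of 6.90 on Sham 1, 6.24 on Naïve 2 and 2.25 or less on each of the other TBI, Sham and Naïve arrays. None of these markers passed the test, with an adjusted p of 0.186 for Ttr in limma. Without Sham 1, 30 genes (0.218%) were called higher and 175 (1.27%) lower, and 24 of the 331 and 149 of the 856 genes were among them. Without TBI 2, 82 (0.593%) were higher and 308 (2.23%) lower, without TBI 3, 61 (0.441%) and 172 (1.24%), and without Sham 2, 171 (1.24%) and 169 (1.23%).

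The groups also differed in slide. Both Sham arrays shared slide 1 with Naïve 1 and 2, and the 3 TBI arrays shared slide 2 with Naïve 3, so no value within a slide exists and a model with the slide as a term reaches the comparison through the Naïve arrays only. Within the 5 arrays slide and group cannot be told apart. In that model 330 of the 331 and 856 of the 856 called genes had the same sign, with medians of 1.83 and -0.92. The same TBI and Sham arrays enter both models, so the signs are no independent check. With the slide term 2 genes (0.0144%) were called higher and 13 (0.0939%) lower, among them 1 of the 331 and 1 of the 856. With the 8 Naïve, Sham and TBI arrays fitted alone, 34 genes (0.246%) were called higher and 70 (0.506%) lower. The calls below therefore rest on a spread estimated over all 6 groups.

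**Figure D1:**
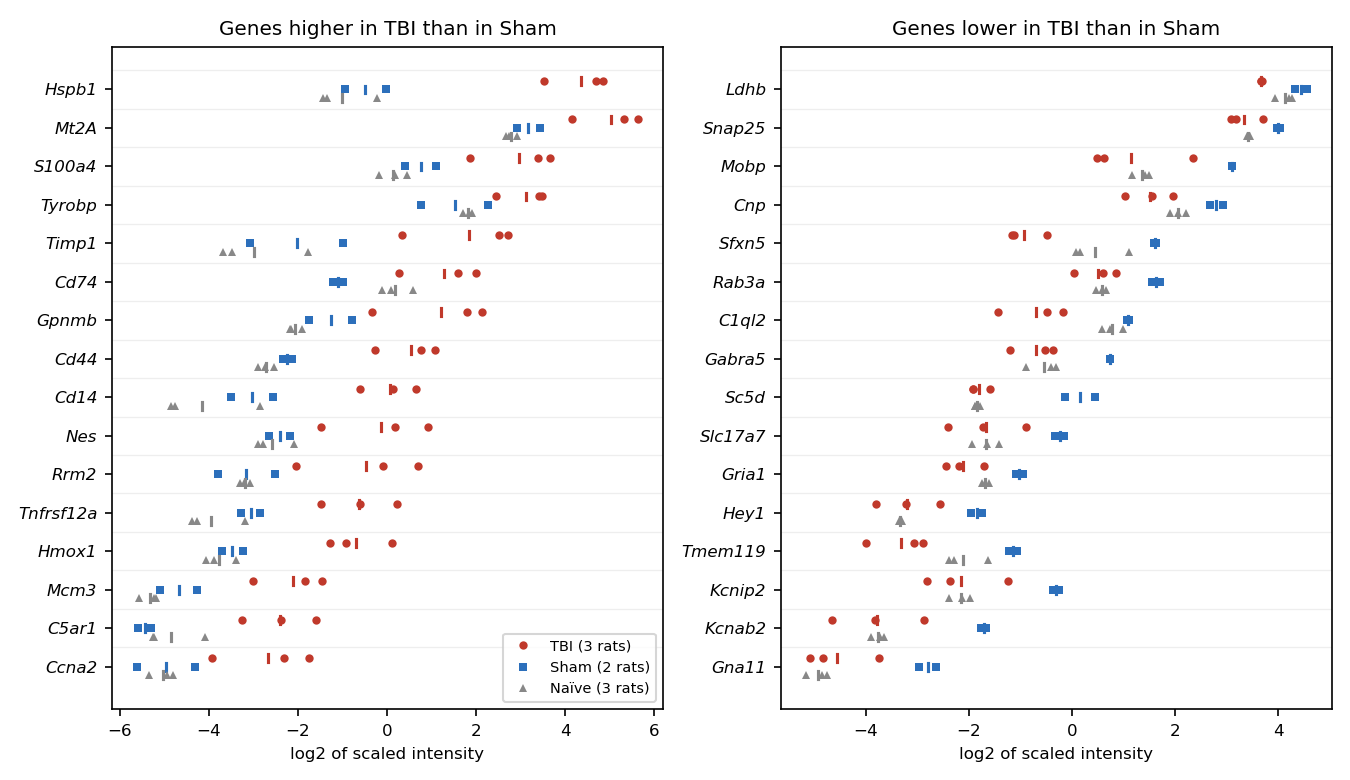
Log2 level of selected called genes on each of the 8 TBI, Sham and Naïve arrays, 1 point per rat, with the group mean as a bar. For Hspb1 the TBI arrays sit between 3.52 and 4.85 and both Sham arrays below 0, while for Sc5d both Sham arrays sit above the TBI and the Naïve arrays.

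Genes of reactive astrocytes made up the list with the largest share of calls. Of 24 tested members 12 were called higher (50%, against 2.39% of all genes) and 0 lower, with a median difference of 1.64. The lists were chosen with earlier results of these data known, so this share is a description and no independent support. Hspb1, a small heat shock protein that protects the actin skeleton, had levels of 3.52, 4.71 and 4.85 on TBI 1, 2 and 3, against -0.94 on Sham 1 and -0.02 on Sham 2. Every TBI array was thus far above both Sham arrays, and the difference was 4.84 ± 0.59 (SE; limma, adjusted p = 0.00399). Its probe lies at chr12:21911494-21911664 of rn4.

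Lcn2, a secreted iron-siderophore carrier, was at 1.25, 4.55 and 4.51 on the TBI arrays and at -3.91 and -3.94 on the Sham arrays. TBI 1 showed the smaller rise, as it did for most members. Timp1, an inhibitor of matrix metalloproteinases, had levels of 0.34, 2.72 and 2.51 in TBI and of -3.07 and -0.98 in Sham, a rise of 3.88 ± 0.76 (SE; limma, adjusted p = 0.0126). Cd44, the hyaluronan receptor, was at -0.26, 1.08 and 0.77 against -2.33 and -2.14, and its rise was 2.77 ± 0.39 (SE; limma, adjusted p = 0.00509). Only 1 of 3 tested Cd44 probes was called, and their differences ran from 0.81 to 2.77.

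Nes, the intermediate filament of progenitor cells, rose by 2.28, Aspg, an asparaginase, by 3.23, Emp1 by 2.22 and S100a10, the annexin A2 partner, by 1.57. For S100a10 TBI 2 had no usable spot. Serpina3n, a secreted protease inhibitor, rose from -8.08 and -3.28 on the Sham arrays to -0.26, 2.16 and 2.46 on the TBI arrays. Its Sham 1 level lay below the lowest signal well above background on that array, so the size of the rise is uncertain. Stat3, the transcription factor that drives the reactive state, was at -3.15, -2.60 and -2.65 in TBI and -5.07 and -4.24 in Sham, a rise of 1.86 ± 0.33 (SE; limma, adjusted p = 0.00895). The receptor subunit Osmr, which binds oncostatin M, was above background on all TBI and no Sham array, and was at least 2.49-fold higher.

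The best known markers of the reactive state did not all pass. Gfap, the main astrocyte filament, had levels of 1.64, 2.20 and 1.87 in TBI and of 1.97 and 0.80 in Sham, with an adjusted p of 0.392 in limma. The Gfap level of the Naïve arrays was between -0.66 and -0.57, below that of both Sham arrays. Vim, the other filament, was at 0.39, 1.45 and 1.21 against -0.92 and -0.10, with an adjusted p of 0.115 in limma. General astrocyte markers were not called in either direction (0 of 14), and Aqp4, the water channel of their endfeet, differed by -0.06. Leaving out 1 array at a time gave between 5 members called higher, without Sham 1 or TBI 3, and 13, without TBI 1.

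Chemokines and cytokines, the secreted attractants and messengers of immune cells, held few but large changes. Of 27 chemokines 4 were called higher and 0 lower, with a median difference of 0.90. Over the 15 above background on all TBI or all Sham arrays the median was 0.18. The rest were kept through other groups. Ccl2 was at 0.48, 1.75 and 1.0 in TBI and -7.46 and -5.10 in Sham, and was above background on 1 of the 2 Sham arrays. Ccl7, which like Ccl2 attracts monocytes, was at 0.91, 0.51 and 0.23 against -7.44 and -5.46. The Ccl7 level on Sham 1 lay below the lowest signal well above background on that array. Cxcl1, which attracts neutrophils, was at -3.79, -2.40 and -3.71 in TBI and above background on no Sham array, so that it was at least 8.10-fold higher. For Ccl3, a macrophage chemokine, the bound was 2.46-fold. The T cell chemokine Ccl5 had a difference of 0.00, and Cxcl10, an interferon-induced chemokine, reached -2.88 on TBI 2 but -5.88 and -5.30 on TBI 1 and 3, with an adjusted p of 0.177 in limma. Leaving out 1 array gave 3 to 10 chemokines called higher, with 10 reached without TBI 1.

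Among 21 cytokines 2 rose and 0 fell, and the median difference was 0.43. Over the 13 above background on all TBI or all Sham arrays the median was -0.16. Tnf, an early inflammatory cytokine, had levels of -3.52, -3.38 and -3.64 in TBI and -6.66 and -5.27 in Sham, a rise of 2.45 ± 0.56 (SE; limma, adjusted p = 0.0207). Il1rn, the antagonist of the interleukin-1 receptor, rose by 3.11 from -7.29 and -5.97 to -5.04, -2.58 and -2.95. On Sham 1 the levels of Tnf and Il1rn lay below the lowest signal well above background, so the sizes of these rises are uncertain. Il1b itself was at -7.52 on TBI 1 and at -3.56 and -4.59 on TBI 2 and 3, against -8.02 and -7.69 in Sham, and did not pass, with an adjusted p of 0.0702 in limma. Without Sham 1, TBI 2 or TBI 3, no cytokine was called higher.

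Of 34 cytokine and chemokine receptors 4 were called higher and 1 lower. Tnfrsf1a, the widely expressed receptor of tumor necrosis factor, was at -2.07, -1.62 and -1.73 in TBI and -3.62 and -2.92 in Sham, a rise of 1.47. Tnfrsf12a, the receptor of TWEAK, was at -1.48, 0.24 and -0.61 against -3.27 and -2.84, a rise of 2.44. Il2rg, the common gamma chain of several interleukin receptors, rose by 1.46. Cntfr, which binds ciliary neurotrophic factor on neurons, fell from -3.86 and -3.48 to -4.91, -4.70 and -4.79, with a Naïve mean of -4.57. These levels were close together within each group, and the adjusted p of Cntfr was 0.0124 in limma. Without Sham 1, 0 of these receptors were called higher and 2 lower, and without TBI 1, 9 were higher and 1 lower.

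Signalling downstream of these receptors was called in few genes. Of 18 JAK-STAT and SOCS genes Stat3 alone rose, and Socs3, its feedback inhibitor, was at -3.95, -3.91 and -4.63 against -6.68 and -5.79 with an adjusted p of 0.0539 in limma. Of 15 NF-kappaB genes 1 rose, Bcl3, a nuclear coactivator of the pathway, by 2.47. Of 28 interferon-stimulated genes 1 rose, Gbp2, a guanylate-binding GTPase, from -2.42 and -2.44 to -1.81, -0.29 and 0.01. The rise of Gbp2 was carried by TBI 2 and 3, and its adjusted p was 0.0446 in limma. Without Sham 1 no gene of these 3 lists was called.

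Sensors of damage and complement receptors rose while most complement components did not pass. Cd14, the coreceptor for endotoxin on myeloid cells, was at -0.60, 0.65 and 0.13 in TBI and -3.50 and -2.56 in Sham, a rise of 3.09 ± 0.65 (SE; limma, adjusted p = 0.0155). In all 4 of 17 members of the toll-like receptor list were called higher and 0 lower. Pycard, the adaptor of inflammasomes, rose by 1.33, and Tlr4 was at least 2.37-fold higher. The counts over leave-one-out fits ran from 0, without TBI 2, TBI 3 or Sham 1, to 10, without TBI 1.

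C5ar1, the receptor of the anaphylatoxin C5a, was at -3.25, -1.58 and -2.38 in TBI and at -5.58 and -5.30 in Sham, a rise of 3.04 ± 0.48 (SE; limma, adjusted p = 0.00693). The receptor of C3a, C3ar1, was at least 3.35-fold higher, and C3 itself, the central component, rose by 1.36. Masp1, a protease of the lectin pathway, fell by 0.91, with means of -1.93 in TBI, -2.02 in Naïve rats and -1.02 in Sham. In C1qa, a subunit of the initiating complex, TBI had levels of 1.66, 1.74 and 1.76 and Sham of 1.96 and 2.47, with an adjusted p of 0.191 in limma. Of 20 complement genes 3 were called higher and 1 lower, and 1 was higher without Sham 1.

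Genes of antigen presentation were called higher in 5 of 43 cases and lower in 1. Cd74, the invariant chain of MHC class II, was at 0.26, 1.61 and 2.01 in TBI and -0.97 and -1.2 in Sham. The class II chain RT1-Da was at -1.63, 0.32 and 0.57 against -2.69 and -2.64, and RT1-DMb, which loads peptide, rose by 1.4. The class I genes moved apart: RT1-T24-4 was at least 5.63-fold and RT1-CE4 2.64-fold higher, while RT1-CE10 was at -7.38, -5.72 and -6.35 in TBI and -4.08 and -3.17 in Sham. On TBI 1 and 3 RT1-CE10 lay below the lowest signal well above background. Class I genes of the rat have near-identical copies, so the identity of the transcripts behind these probes is uncertain. Without TBI 1, 11 members were higher, and without Sham 1 or TBI 3, 1 was.

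Markers of blood leukocytes were higher in the injured hippocampus. Of 23 tested 7 were called higher and 0 lower, with a median difference of 0.98. Only 9 of the 23 were above background on all TBI or all Sham arrays, and the rest were kept through other groups. S100a8 and S100a9, the calprotectin subunits that fill neutrophils, rose by 3.77 and 2.95. S100a9 was at -2.86, 0.86 and -0.28 in TBI and at -3.80 and -3.62 in Sham, so TBI 1 lay nearer to Sham than to TBI 2. Itgal, the leukocyte integrin LFA-1, was at least 2.01-fold higher and Lilrb4, an inhibitory receptor of myeloid cells, at least 5.88-fold. Ms4a1, the B cell marker CD20, was above background on none of the 5 arrays, and Ptprc, the pan-leukocyte phosphatase CD45, was at -3.01, -1.33 and -1.38 against -4.02 and -3.1 with an adjusted p of 0.0597 in limma.

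The summed level of the 22 leukocyte markers measured on every TBI, Sham and Naïve array was 1.56, 4.96 and 3.27 on TBI 1, 2 and 3 and 0.629 and 1.2 on Sham 1 and 2, on the linear scale. It ran from 0.524 to 0.875 on the Naïve arrays. TBI 2 had the highest and TBI 1 the lowest sum of the TBI arrays, and the groups did not overlap. The part of these cells in the other results was not tested. Without Sham 1 none of the markers was called, and without TBI 1 12 were.

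Microglia markers moved in both directions. Tyrobp, the signalling adaptor of microglial receptors, was at 2.46, 3.49 and 3.41 in TBI and 0.77 and 2.28 in Sham, a rise of 1.59. Itgam, the CD11b integrin chain that myeloid cells share, was at -0.77, -0.14 and -0.37 against -2.02 and -1.65, a rise of 1.4. By contrast Tmem119, a marker of resident microglia at rest, was at -3.06, -3.99 and -2.90 in TBI and -1.23 and -1.07 in Sham. It fell by 2.17 ± 0.39 (SE; limma, adjusted p = 0.00925), and both tested probes were called lower. P2ry12, the receptor that guides microglial processes to ATP, fell by 1.41, from -0.25 and 0.00 to -0.98, -1.76 and -1.85. The other 9 of 13 markers did not pass, among them Aif1 (difference 0.43, with a dimmer probe called higher at 1.04), Cx3cr1 (0.24) and Csf1r (-0.05). Without Sham 1, 0 of the 13 were called, and without Sham 2, 2 were higher and 0 lower.

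Adhesion, phagocytosis and calcium-binding genes completed the inflammatory profile. In the list of annexins and S100 proteins 6 of 22 were called higher and 0 lower, among them S100a4, at 1.86, 3.67 and 3.40 in TBI and 0.40 and 1.11 in Sham, and S100a6, a rise of 2.35. Of 28 integrins and leukocyte adhesion genes 5 rose and 1 fell: Selplg, the P-selectin ligand that microglia also express, was at -3.99, -4.91 and -5.16 against -3.08 and -2.81. In the lysosome list of 29 genes Cd68, a phagocyte marker, and Gpnmb rose by 2.68 and 2.47, and Psap, the precursor of the saposins, fell by 1.45. No annexin or S100 gene was called without Sham 1, and 9 were higher without TBI 1.

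Of 45 tested genes of DNA replication and cell division 11 were called higher and 1 lower, with a median difference of 1.31. Rrm2, the ribonucleotide reductase subunit that supplies DNA precursors, was at -2.04, 0.71 and -0.09 in TBI and -3.80 and -2.51 in Sham, and both of its probes were called. Of the called genes 5, Mcm2, Mcm3, Mcm5, Mcm6 and Mcm7, encode subunits of the replicative helicase. Mcm3 was at -3.0, -1.46 and -1.84 in TBI and -5.08 and -4.26 in Sham, a rise of 2.58 ± 0.48 (SE; limma, adjusted p = 0.011).

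The cyclin gene Ccna2 rose by 2.29, the origin licensing factor Cdc6 by 2.32, the spindle motor Kif11 by 2.05, the survivin gene Birc5 by 1.67 and the thymidine kinase Tk1 by 1.46. Each of them was highest on TBI 2 and lowest of the TBI arrays on TBI 1. Cdk1, the mitotic kinase, was at -2.87 on TBI 1 and -2.77 on Sham 2, and did not pass with an adjusted p of 0.054 in limma. Lmnb2, a lamin of the nuclear envelope, was the 1 member called lower. Single arrays moved these counts: 26 members were called higher without TBI 1, 1 without TBI 2 or TBI 3, 7 without Sham 2 and 0 without Sham 1.

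Stress and metal-handling genes were mixed. Hmox1, the haem-degrading enzyme, was at -1.28, 0.13 and -0.92 in TBI and -3.71 and -3.23 in Sham, a rise of 2.78 (limma, adjusted p = 0.049). Mt2A, a metallothionein that binds zinc, was at 4.16, 5.64 and 5.33 against 2.93 and 3.43. Keap1, the inhibitor of NRF2, fell by 1.29 and Prdx6, a peroxiredoxin, by 1.01. The Keap1 mean was -2.14 in TBI, -1.93 in Naïve rats and -0.85 in Sham. Of 26 genes in the NRF2 and metal list 2 were thus higher and 2 lower. Of 28 heat shock genes and chaperones Hspb1 alone was called, and Hsp90aa1, the abundant cytosolic chaperone, differed by 0.04. Ddit4, an inhibitor of mTOR, fell by 1.58 as the 1 called gene of 25 in the stress and p53 list. Without Sham 1 neither the metal nor the stress list held a call.

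Of 34 apoptosis genes 2 were called higher, Casp4, an inflammatory caspase, by 2.31, and Fadd, for which neither group was above background. In the extracellular matrix list of 37 genes, Spp1 (osteopontin), Vcan (versican) and Fbln2 (fibulin) rose, Spp1 by 6.24 and the others by 1.08 and 1.74, while Dcn, the small proteoglycan decorin, fell from -0.93 and -0.98 to -3.16, -2.27 and -2.87. Plau, the urokinase plasminogen activator, was at least 4.25-fold higher. Serpine2, an inhibitor of thrombin made by glia, fell by 1.06, with 1 Sham array measured.

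Immediate early genes, which neuronal activity induces, were called in 2 of 32 cases (6.25%, against 8.57% of all genes). Fosl1, an AP-1 subunit, was at least 5.32-fold higher and Maff, a small MAF factor, at least 2.37-fold. Fos was at -2.40, -1.81 and -2.75 in TBI and -3.81 and -3.19 in Sham, yet its spread over the series was large and the adjusted p was 0.583 in limma. Arc, the synaptic plasticity gene, was at -0.32, -1.43 and -0.73 against 1.02 and 1.36, with an adjusted p of 0.35. The groups did not overlap in either gene, as was so for 14.3% of all genes on the higher and 25.4% on the lower side. Leaving out any array but TBI 1 left no immediate early gene called.

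**Figure D2:**
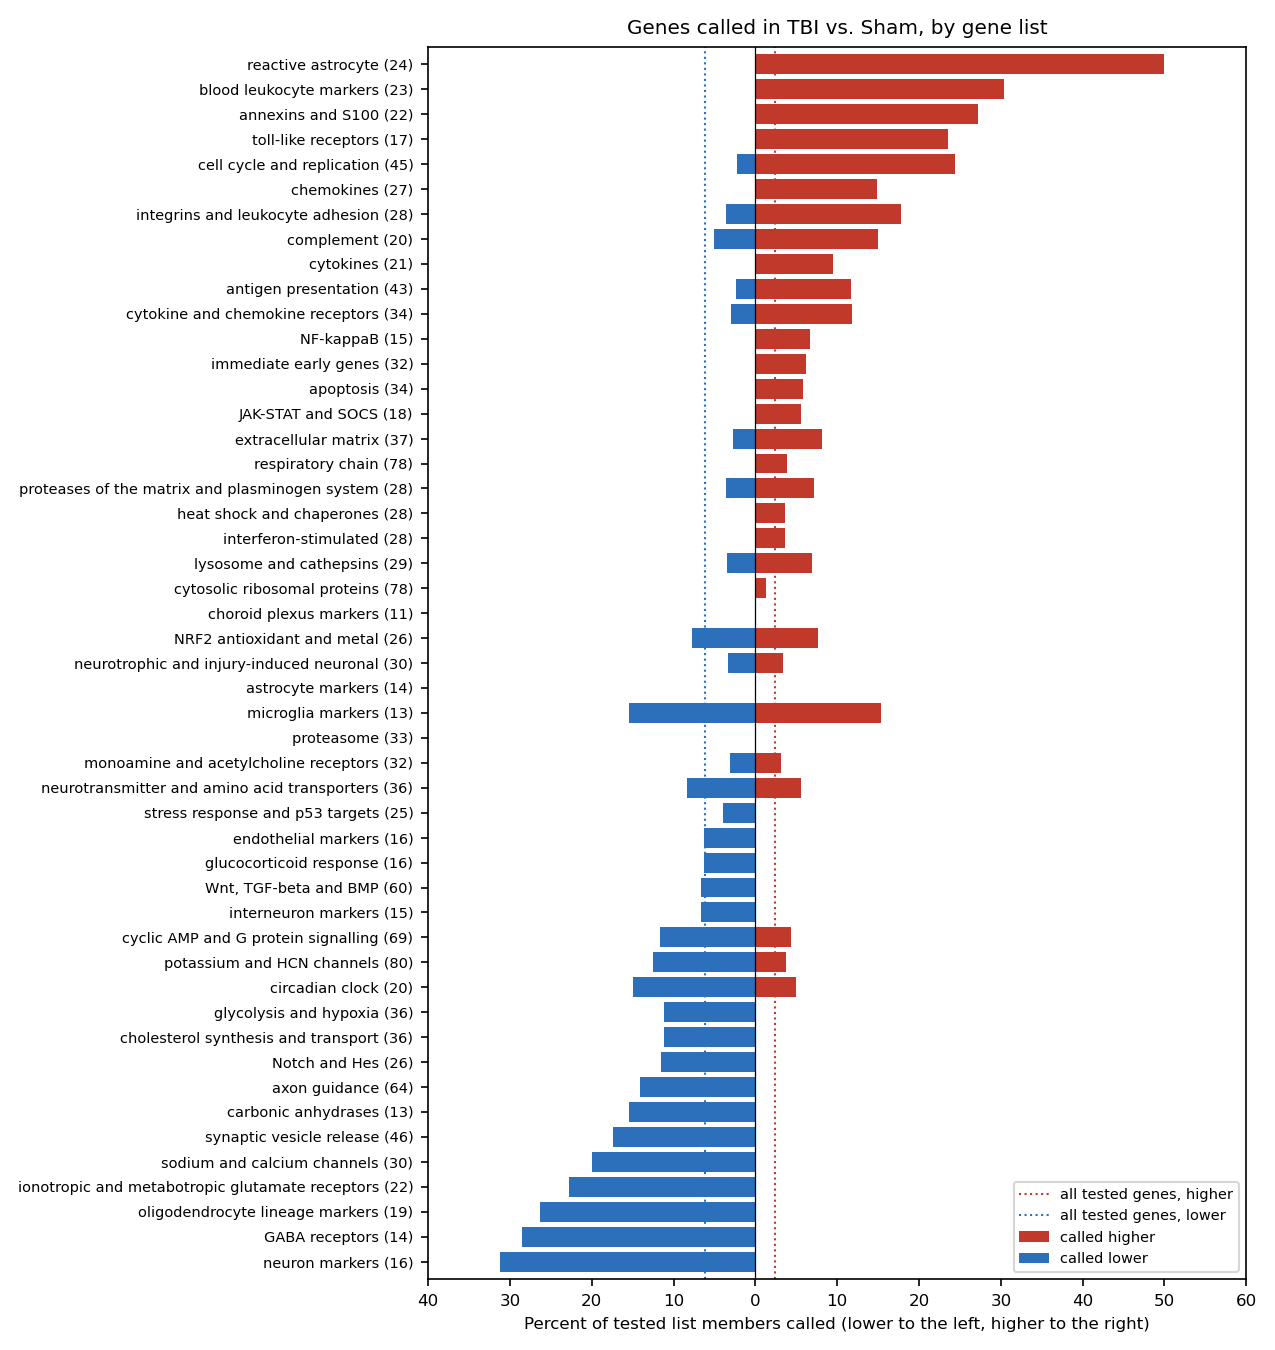
Members called higher (to the right) and lower (to the left) in TBI vs. Sham in each list with at least 10 tested members, as a percent of the members tested, whose number is in brackets. Dotted lines mark the percent over all genes, 2.39% higher and 6.18% lower. Reactive astrocyte genes show the largest share called higher, 12 of 24, while the lists of glutamate receptors, GABA receptors, ion channels and oligodendrocyte genes lie mostly on the lower side. The lists were chosen with earlier results of these data known.

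AP-1 and STAT factors act on promoters through short motifs, and Stat3 and Fosl1 were among the genes called higher. The windows from 250 bases before to 50 after the transcription start in RefSeq (GRCr8) were therefore searched on both strands, and windows were held for 11299 of the 13847 genes tested, for 248 of the 331 called higher and for 688 of the 856 called lower. The AP-1 motif was searched in a loose form, TGANTCA, with any base (N) in the middle. These letters stood in 26 windows of genes called higher (10.5%), in 26 of genes called lower (3.78%) and in 610 of all tested (5.4%). For TTCNNNGAA of the STAT motif the shares were 7.66%, 4.36% and 7.04%. An NF-kappaB motif, GGANTTTCC, was found in 1.21%, 0.581% and 1.32%. Further shares, in the same order, were 2.02%, 2.91% and 2.92% for the full CRE, TGACGTCA, and 7.66%, 9.59% and 8.91% for the E-box, CACGTG. The antioxidant motif TGACNNNGC, whose letters can overlap those of AP-1, stood in 12.9%, 14.8% and 14.3%. These shares are descriptions with no test, and a match is not a binding site.

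The promoter stretches of 5 genes that rose and hold the loose AP-1 letters are shown because these letters had the largest difference in share. They end at the base before the start, run 5′ to 3′ on the gene's strand, and carry the motif in capitals. They lie in GRCr8 at chr2:57688562-57688661 for Osmr, chr2:234005627-234005726 for Gbp2, chr4:164483962-164484161 for Clec12a, chr10:67513995-67514094 for Ccl7 and chr10:54882442-54882661 for Cd68. Osmr and Cd68 are on the minus strand and the others on the plus strand. Cd68 holds the motif at 2 places. The middle base is G in Gbp2 and Cd68, T in Osmr and Ccl7 and A in Clec12a, and shares by middle base were not counted.
Osmr: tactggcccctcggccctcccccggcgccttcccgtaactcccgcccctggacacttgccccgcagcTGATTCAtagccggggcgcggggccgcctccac
Gbp2: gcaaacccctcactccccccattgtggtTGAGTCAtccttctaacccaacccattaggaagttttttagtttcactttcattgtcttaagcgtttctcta
Clec12a: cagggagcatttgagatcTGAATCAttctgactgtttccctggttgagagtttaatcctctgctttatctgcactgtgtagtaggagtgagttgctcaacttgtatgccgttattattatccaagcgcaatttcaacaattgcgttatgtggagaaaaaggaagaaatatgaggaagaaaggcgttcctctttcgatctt
Ccl7: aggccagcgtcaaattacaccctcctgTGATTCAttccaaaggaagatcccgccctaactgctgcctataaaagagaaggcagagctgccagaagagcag
Cd68: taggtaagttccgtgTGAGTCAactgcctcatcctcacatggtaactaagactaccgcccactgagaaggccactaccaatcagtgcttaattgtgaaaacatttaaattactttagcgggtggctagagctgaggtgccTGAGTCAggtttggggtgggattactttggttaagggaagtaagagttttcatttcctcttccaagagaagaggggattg

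Serpina3n and Tnfrsf12a rose and hold the STAT letters, in capitals below. They are shown because Stat3 was called higher, although the STAT share was 7.66% in genes called higher and 7.04% in all tested. A link between these letters and the rises was not tested. The stretch of Serpina3n is chr6:129088242-129088391 on the plus strand, and that of Tnfrsf12a chr10:13213649-13213798 on the minus strand.
Serpina3n: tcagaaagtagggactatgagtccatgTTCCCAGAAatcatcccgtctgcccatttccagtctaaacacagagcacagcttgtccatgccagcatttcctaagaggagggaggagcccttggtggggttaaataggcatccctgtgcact
Tnfrsf12a: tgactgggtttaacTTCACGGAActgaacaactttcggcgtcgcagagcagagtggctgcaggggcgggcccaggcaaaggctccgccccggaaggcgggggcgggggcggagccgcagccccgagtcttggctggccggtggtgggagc

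Neuron markers, glutamate receptors, GABA receptors and synaptic vesicle genes held calls in the lower direction only. Of 16 neuron markers 5 were called lower and 0 higher, with a median difference of -0.69, which was -0.39 with scaling to the E1A spots, control transcripts added to each sample. Snap25, a SNARE protein of the synapse, was at 3.70, 3.18 and 3.08 in TBI and 3.98 and 4.02 in Sham, and fell by 0.68. Slc17a7, the vesicular transporter that loads glutamate, was at -0.89, -2.41 and -1.73 against -0.33 and -0.15, and fell by 1.43. Its Naïve levels, -1.42, -1.94 and -1.64, lay within the TBI range. In these bulk samples fewer cells of a type and less RNA per cell cannot be told apart.

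Rbfox3, the neuronal nuclear antigen NeuN, was at least 1.97-fold lower (with normexp background correction its difference turned to 0.14), Syn1 (synapsin) fell by 1.34 and Thy1 by 1.12. Nefl, the light neurofilament chain, was at 1.42, 0.68 and 0.92 in TBI and 1.87 and 2.0 in Sham and did not pass (limma, adjusted p = 0.102), nor did Camk2a (difference -0.71). The summed level of the 14 neuron markers measured on every array was 77.7, 61.7 and 58.9 on the TBI arrays and 75.3 and 83.1 on the Sham arrays, so the sums overlapped, and it was 71.0 to 82.1 on the Naïve arrays. Leaving out TBI 1 gave 8 markers called lower, leaving out Sham 2 gave 1, and leaving out any other array gave 0.

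Glutamate and GABA receptors fell in part. Of 22 glutamate receptor genes 5 were called lower and 0 higher, with a median difference of -0.55. Gria1, an AMPA receptor subunit, was at -1.71, -2.44 and -2.19 in TBI and -1.09 and -0.96 in Sham, and fell by 1.09. The NMDA receptor subunits Grin1 and Grin2c fell by 1.01 and 1.43, and Grin2b, above background on no TBI array, was at least 2.26-fold lower, though its difference turned to 0.04 with normexp background correction. Without TBI 1, 8 of these genes were called lower, without Sham 2, 0 were, and without any 1 of the other arrays 1 was. With quantile normalization 1 was lower, and in the authors' matrix 0 were.

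Of 14 GABA receptor genes 4 were called lower and 0 higher, and the median difference, -0.98, was among the lowest of the lists. Gabra5, the alpha subunit of extrasynaptic receptors on hippocampal pyramidal cells, was at -0.37, -1.2 and -0.53 in TBI and at 0.73 on both Sham arrays, and fell by 1.43 ± 0.26 (SE; limma, adjusted p = 0.0097). On the Naïve arrays Gabra5 was at -0.90, -0.31 and -0.41, levels close to those of TBI. Gabrg1, a gamma subunit, was at -2.15, -3.18 and -3.21 in TBI and -1.82 and -1.55 in Sham, and fell by 1.16. No GABA receptor gene was called without Sham 1, and 6 were lower without TBI 1.

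In the list of 32 monoamine and acetylcholine receptors 1 gene was called in each direction. Adrb1, the beta-1 adrenergic receptor, was at -6.46, -5.85 and -6.87 in TBI and at -5.02 and -5.01 in Sham, and fell by 1.38. On TBI 1 and 3 Adrb1 lay below the lowest signal well above background, and its difference turned to 0.34 with normexp background correction. Htr2b, a serotonin receptor, was at -6.61, -4.45 and -5.48 against -7.01 and -8.26, with no Sham array above background, and was at least 1.75-fold higher. With quantile normalization Htr2b did not pass, with an adjusted p of 0.07 in limma.

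Potassium and HCN channel genes were the largest group of channels. Of 80, 10 were called lower (12.5%, against 6.18% of all genes) and 3 higher (3.75%, against 2.39%). Kcnj4, an inward rectifier of pyramidal and granule cells, was at -5.02, -4.97 and -5.10 in TBI and -3.07 and -2.91 in Sham, and fell by 2.04 ± 0.28 (SE; limma, adjusted p = 0.00507). The arrays of each group lay close together. Kcnab2, an auxiliary subunit of Kv1 channels, fell by 2.07 from -1.76 and -1.66 to -2.88, -4.65 and -3.81. Its Naïve mean, -3.76, was near its TBI mean, -3.78. Hcn2, a pacemaker channel, fell by 1.99, the auxiliary subunits Kcnip2 and Kcnip4 by 1.83 and 1.16, Kcnj11, the pore of the ATP-sensitive channel, by 1.88, Kcnj9 by 1.49, and Kcnq5, a channel of the M-current, by 1.25.

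Kcnd3 and Kcng4 were not above background in TBI and were at least 2.36-fold and 1.31-fold lower. With normexp background correction the differences of Kcnd3, Kcng4 and Kcnq5 turned to 0.08, 0.21 and 0.05. Of the 2 Kcnip2 probes, the other had a difference of 0.18. Kcnn4, a calcium-activated channel of immune cells, was at -4.29, -1.81 and -2.04 in TBI and -6.19 and -4.97 in Sham. Its Sham 1 level lay below the lowest signal well above background on that array. Kcnk13, a channel of microglia, rose by 1.32 and Kcnj8, a channel of pericytes, by 0.99. For Kcnk13 1 of 2 probes was called, and the mean was -2.31 in TBI, -2.71 in Naïve rats and -3.63 in Sham. With quantile normalization Kcnk13 did not pass (limma, adjusted p = 0.05001). Without TBI 1 the list had 2 members higher and 17 lower, and without Sham 2 it had 0 and 3. With E1A scaling 1 was higher and 1 lower.

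Of 30 sodium and calcium channel genes 6 were called lower and 0 higher. Among them were 5 genes of auxiliary subunits of calcium channels: Cacnb1 and Cacnb3 fell by 1.02 and 0.67. Of the subunits that also escort AMPA receptors, Cacng2 fell by 1.14, Cacng7 fell by 1.41 and Cacng8 fell by 1.45. The Cacng8 mean was -3.585 in TBI, -3.51 in Naïve rats and -2.14 in Sham. Without Sham 2 none of the 30 was lower, and without TBI 1 7 were.

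Synaptic vesicle genes were called lower in 8 of 46 cases and higher in 0. Rab3a, a GTPase of vesicle docking, was at 0.85, 0.04 and 0.60 in TBI and 1.70 and 1.55 in Sham, and fell by 1.12. Its close relative Rab3c was at -4.25, -3.90 and -4.24 against -3.20 and -3.07. Rims1, a scaffold of the active zone, was at -2.93 on TBI 1, near the Sham levels of -2.84 and -2.48, and at -4.87 and -4.75 on TBI 2 and 3. The Rims1 mean was -4.18 in TBI and -4.13 in Naïve rats. Syngr3 and Sv2b fell by 0.72 and 0.77 and Unc13b, a priming factor, by 1.0. The count ran from 0, without Sham 2, to 16, without TBI 1, and was 0 with E1A scaling.

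Cyclic AMP and G protein signalling had 8 members of 69 called lower and 3 higher. Gna11, an alpha subunit that couples to phospholipase C, was at -3.74, -4.83 and -5.08 in TBI and -2.96 and -2.64 in Sham, and fell by 1.75. Its mean was -4.55 in TBI and -4.92 in Naïve rats. Gnaz, another alpha subunit, fell by 1.92, Gng7 by 1.64, Prkacb, a catalytic subunit of protein kinase A, by 1.5, Gna12 by 1.48, Gnb2 by 1.14 and Gnb5 by 0.79. The neuronal adenylyl cyclase Adcy1, which none of the TBI arrays detected above background, was at least 3.05-fold lower.

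In contrast Adcy9, another adenylyl cyclase, was at -1.68, -2.63 and -2.53 in TBI and -5.01 and -4.0 in Sham, a rise of 2.23, and its Naïve levels, -1.12, -1.60 and -1.46, lay above those of TBI. Pde10a, a phosphodiesterase, likewise rose by 0.96 with Naïve levels of 0.40, 0.46 and 0.48. For Prkar2a neither group was above background. Without Sham 1, 0 members were called higher and 2 lower, and with E1A scaling 2 were higher and 0 lower.

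Axon guidance genes were called lower in 9 of 64 cases and higher in 0. Epha8, an ephrin receptor, was at -1.31, -3.69 and -2.64 in TBI and -0.49 and -0.03 in Sham, and fell by 2.28. Its Naïve mean, -2.40, was near its TBI mean, -2.54, and only 1 of 2 probes was called lower. Others were the netrin receptors Unc5a, by 1.25, and Unc5b, at least 2.09-fold lower, the semaphorin Sema3b, by 1.09, the plexin Plxnb1, a semaphorin receptor, by 0.86, and the Nogo receptor Rtn4r, by 0.89. The difference of Unc5b turned to 0.00945 with normexp background correction. Without Sham 2, 0 were called lower, and without TBI 1, 11 were. The count was 2 with quantile normalization, in the authors' matrix and with the replicate block.

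Markers of the hippocampal fields were few but gave calls on one side. C1ql2, a secreted synaptic organizer of dentate granule cells, was at -1.43, -0.18 and -0.48 in TBI and at 1.07 and 1.10 in Sham, with Naïve levels of 0.99, 0.73 and 0.58. This gene thus separated TBI from both other groups, and it fell by 1.78 (limma, adjusted p = 0.0237). Calb1, the calcium buffer calbindin of granule cells and some interneurons, was at -2.64, -2.70 and -3.12 against -1.95 and -1.47. It was the 1 called of 15 interneuron markers (6.67%, against 6.18% of all genes called lower). Of 9 markers of the CA fields 1 was called lower, Fibcd1, which fell by 0.88. Interneuron markers other than Calb1 did not pass, with differences of -0.38 for Gad1, -0.43 for Pvalb and -0.13 for Sst, but a second, dimmer Gad1 probe was called lower at -2.53.

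Oligodendrocytes make myelin, and 5 of 19 genes of their lineage were called lower and 0 higher, with a median difference of -0.70. Mobp, a myelin basic protein of oligodendrocytes, was at 2.35, 0.62 and 0.49 in TBI and 3.1 and 3.1 in Sham, and 1 of its 3 probes was called. Its mean was 1.15 in TBI and 1.35 in Naïve rats. Cnp, an enzyme of uncompacted myelin, fell by 1.28, Ermn by 1.17 and Cldn11, a tight junction protein of myelin, by 1.06. Mbp, the classic myelin basic protein, differed by -0.05 and the groups overlapped. The summed level of the 19 markers was 125, 86.4 and 63.8 on TBI 1, 2 and 3, 127 and 134 on the Sham arrays, and 96.4 to 132 on the Naïve arrays. Without Sham 1 or Sham 2, 0 of them were called, and without TBI 1 10 were lower.

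Enzymes of metabolism were called lower in small numbers. Sc5d, the sterol desaturase of a late step of cholesterol synthesis, was at -1.92, -1.59 and -1.92 in TBI and -0.13 and 0.44 in Sham, and fell by 1.97 ± 0.22 (SE; limma, adjusted p = 0.00347). Its levels on the Naïve arrays were -1.78, -1.89 and -1.89, the same range as TBI, so Sham stood apart from both. Mvk and Tm7sf2, of the same pathway, fell by 1.01 and 0.86, and 4 of the 36 genes of the list were lower and 0 higher. Of 36 glycolysis and hypoxia genes 4 were lower and 0 higher, among them Ldhb, a lactate dehydrogenase subunit, at 3.68, 3.67 and 3.66 against 4.32 and 4.55. Another was Epas1, a hypoxia-inducible factor, which fell by 1.44. The Epas1 mean was -4.26 in TBI, -4.425 in Naïve rats and -2.825 in Sham. In the kynurenine pathway, which degrades tryptophan, the aminotransferases Kyat1 and Kyat3 fell by 0.71 and 0.68 and the other 7 of 9 genes did not pass. Without TBI 3 or Sham 2, 1 cholesterol gene was lower, and without any 1 array but TBI 1, 0 glycolysis and kynurenine genes were.

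Of 26 Notch and Hes genes 3 were called lower and 0 higher, and 13 had a positive and 13 a negative difference. Hes5, a Notch target, and Hey1, a related repressor, fell by 3.60 and 1.35, with Hey1 at -2.57, -3.79 and -3.22 in TBI, -1.95 and -1.74 in Sham and -3.34, -3.29 and -3.36 in Naïve rats. Notch1 itself, at -1.54, -1.13 and -1.44 against -2.09 and -1.84, did not pass (limma, adjusted p = 0.0731). Of 60 genes of the Wnt, TGF-beta and BMP list 4 were lower, a share near that of all genes, among them Wnt7b, a secreted ligand that fell by 1.53, and the follistatin-like gene Fstl1, which fell by 1.41 on 1 of 2 probes. Among 20 clock genes 3 were lower and 1 higher. Nr1d2, a repressor of the clock, fell by 1.32 and Ciart, another repressor, rose by 0.96. The Nr1d2 mean was -5.20 in TBI, -5.14 in Naïve rats and -3.88 in Sham. With quantile normalization and with E1A scaling 0 of the 20 were called. Fam107a, a gene that glucocorticoids induce, fell from 0.50 and 0.55 to -0.13, -2.05 and -1.68. Fam107a had a mean of -1.29 in TBI and -1.18 in Naïve rats. It was the 1 called gene of 16 in the glucocorticoid list (6.25%, against 6.18% of all genes called lower). Without Sham 1, 1 Notch gene and no clock gene was called.

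Some neighbours in function moved apart. Gfra1, the receptor of GDNF, was at -2.92, -2.55 and -2.64 in TBI and -4.03 and -3.66 in Sham, a rise of 1.14, while Stmn4, a neuronal regulator of microtubules, fell by 2.05, and Gap43, a protein of growing axons, differed by -0.08. Car2, the cytosolic carbonic anhydrase of glia, was at 1.4, 0.71 and 0.64 against 2.11 and 2.30. Among transporters Slc1a5, a glutamine carrier, rose by 1.5 and Slc38a3, another glutamine carrier, fell by 1.15. Slc6a7, the brain proline carrier, fell from -2.09 and -1.76 to -3.29, -3.31 and -3.35. Slc18a1, a vesicular transporter of monoamines, was at -3.32, -3.18 and -3.30 in TBI, at -4.37 and -5.20 in Sham and at -2.57, -3.19 and -3.17 in Naïve rats, a rise of 1.52. In the endothelial tight junction gene Cldn5 the mean was -0.22 in TBI, -0.03 in Naïve rats and 1.01 in Sham. Cldn5 fell by 1.23, and by 0.31 with the slide as a fixed block. It was the 1 called of 16 endothelial markers (6.25%, against 6.18% of all genes called lower).

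In the list of 78 cytosolic ribosomal proteins 1 gene was called higher and 0 lower, while 72 of the 78 differences were positive, with a median of 0.27. The called gene was Rps2, by 0.82, with 1 of its 4 probes called. The number called higher was 8 with the percentile taken over all probes, 9 with the GC trend removed, 4 with quantile normalization and 6 in the authors' matrix. Of 78 respiratory chain genes 3 were higher and 0 lower, among them Cox6a2, at -1.2, 0.10 and -0.58 against -4.24 and -1.71. No proteasome gene of 33 was called. No thalamus marker and no red blood cell marker was called, with 5 of each tested.

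**Figure D3:**
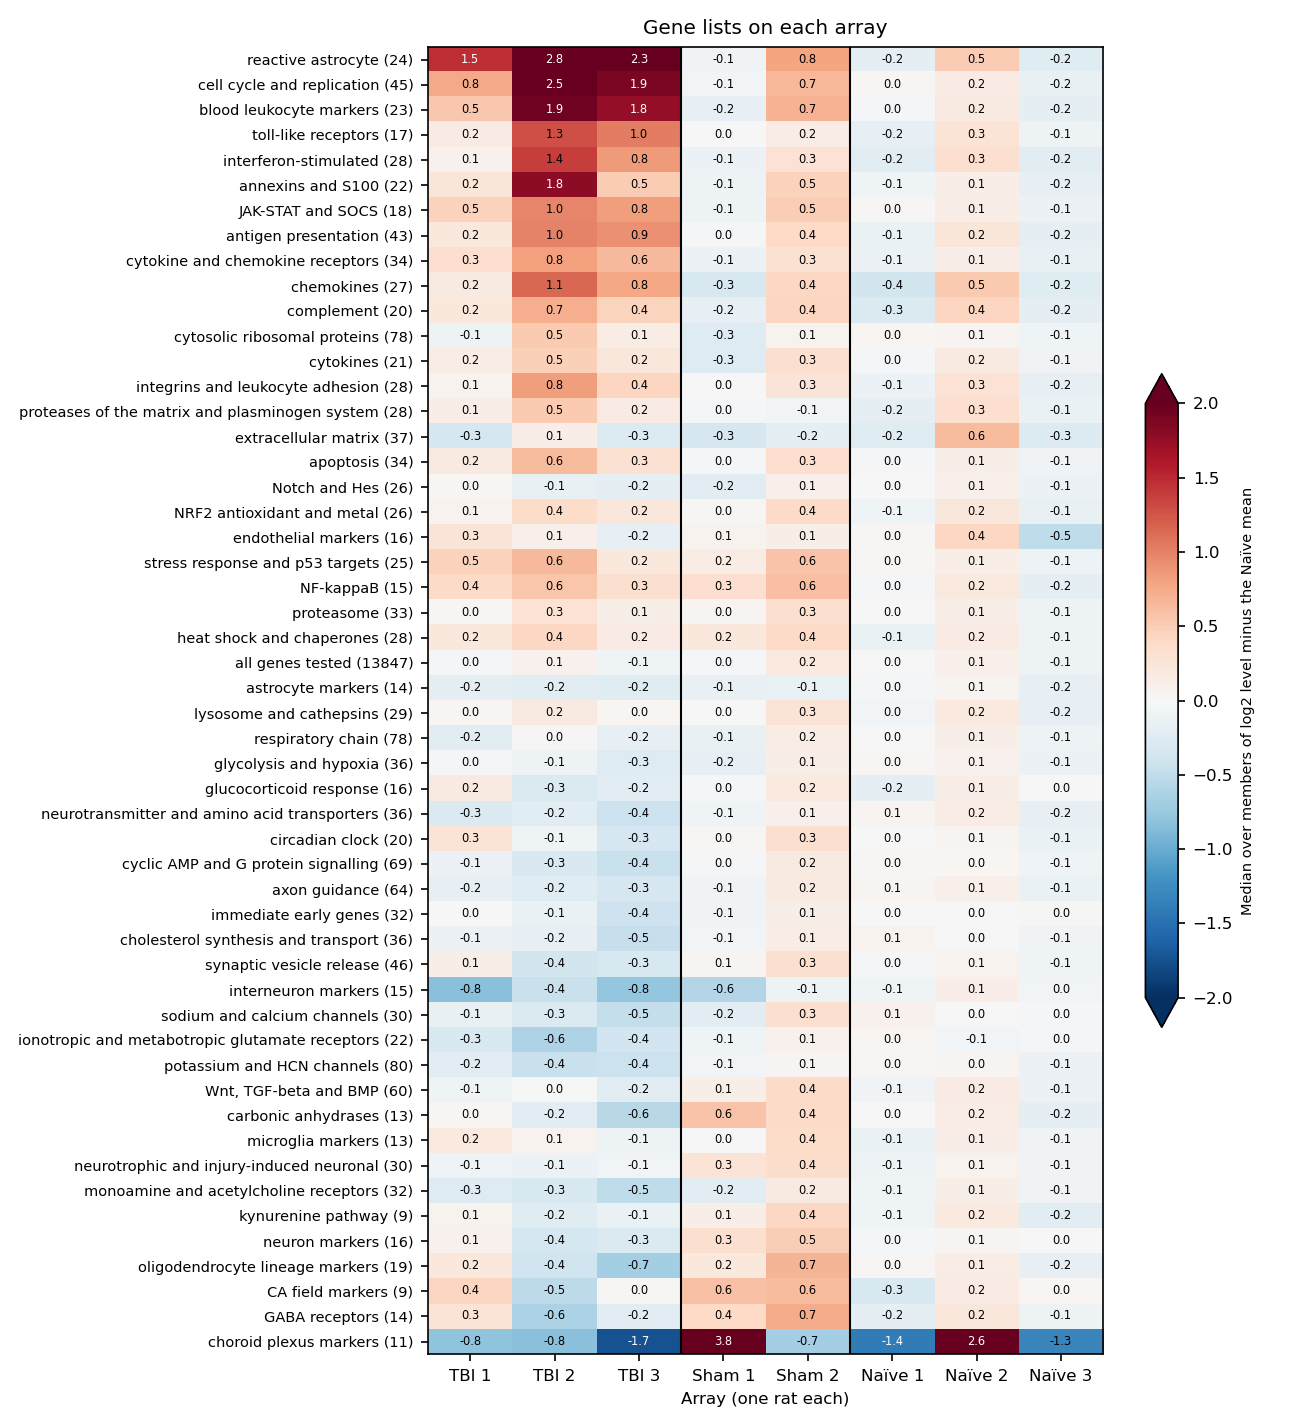
Median level over the members of each list on each TBI, Sham and Naïve array, relative to the mean of the 3 Naïve arrays on the log2 scale, with the number of genes in brackets. Reactive astrocyte genes have medians of 1.48, 2.84 and 2.32 on TBI 1, 2 and 3, and choroid plexus markers stand out on Sham 1 and Naïve 2.

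Outside the lists the largest rises, among genes above background on all 5 arrays, held further myeloid and cytoskeletal genes. Lgals3, a galectin of phagocytes, was at -0.46, 2.89 and 2.0 in TBI and -3.04 and -1.59 in Sham, a rise of 3.79. Lsp1, an actin-binding protein of leukocytes, was at 0.32, 1.51 and 1.36 against -2.86 and -0.58, and the myeloid kinase Fgr at -2.83, -1.12 and -1.4 against -4.79 and -3.97. The myeloid lectin receptor Clec12a rose by 3.19, and a gene that the array names as similar to immunoglobulin superfamily member 7 rose by 4.23.

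H19, an imprinted non-coding RNA, was at -1.52, 1.22 and 0.87 in TBI and -4.87 and -3.47 in Sham, a rise of 4.36 ± 0.75 (SE; limma, adjusted p = 0.00827). Tubb6, a beta tubulin, rose by 3.53, Sdc1, the heparan sulfate proteoglycan syndecan-1, by 3.47, and Gldn, gliomedin of the node of Ranvier, by 3.42. In each of these TBI 1 was the lowest of the TBI arrays. Banp, a nuclear matrix protein, rose by 2.71 from -5.01 and -5.62 to -2.09, -2.44 and -3.27, and its Naïve levels, -2.92, -3.1 and -2.12, fell in the TBI range.

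Among the 10 largest falls outside the lists, the Naïve mean lay nearer the TBI than the Sham mean in every gene but Sfxn5. Means in TBI, Naïve and Sham rats were -3.39, -3.23 and -0.94 for Ormdl3 and -2.48, -2.42 and -0.18 for Cdk5r2. Rpl19-ps25, a pseudogene of a ribosomal protein gene, was at -2.33, -1.68 and -2.12 in TBI, at 3.55 and 4.11 in Sham and at -2.69, -3.0 and -2.35 in Naïve rats. Both of its probes were called, but such pseudogenes have near-identical copies and the source of the signal is uncertain. Canx, the chaperone calnexin, was at -3.51, -4.76 and -4.91 in TBI, -1.89 and -1.67 in Sham and -4.73, -4.92 and -4.71 in Naïve rats. It fell by 2.61 ± 0.33 (SE; limma, adjusted p = 0.00432). Tceal3 fell by 2.97, Serhl2 by 2.68, Ormdl3, a regulator of sphingolipid synthesis, by 2.45, Klhdc8b by 2.40, Cdk5r2, a neuronal activator of the kinase CDK5, by 2.30 and B4galt2, a galactosyltransferase, by 2.21. Sfxn5, a mitochondrial carrier of the sideroflexin family, was at -0.49, -1.16 and -1.13 in TBI, 1.58 and 1.62 in Sham and 1.11, 0.15 and 0.07 in Naïve rats, above every TBI array. Ark2n was at -4.07, -4.77 and -4.84 in TBI, at -0.92 on Sham 1 and at -3.53 on Sham 2, and its 2 probes differed, at -2.34 and 0.31.

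The levels of all called genes were also set beside the Naïve arrays. For the genes called higher, the median level relative to the Naïve mean was 0.84, 1.81 and 1.58 on TBI 1, 2 and 3 and -0.48 and 0.02 on Sham 1 and 2. For the genes called lower it was 0.06, -0.30 and -0.38 on the TBI arrays and 0.86 and 1.0 on the Sham arrays. By these medians the TBI arrays were farther from the Naïve level in the genes called higher, and the Sham arrays in those called lower. Over whole lists, the neuron marker and GABA receptor medians were -0.17 and -0.23 in TBI and 0.44 and 0.55 in Sham. Those of glutamate receptors and of potassium and HCN channels were -0.41 and -0.40 in TBI and -0.04 and 0.0004 in Sham. These values are given without a test.

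The balance of higher and lower calls moved with the scaling. Among probes, 667 of the 2146 called were higher (31.1%). The share was 46.8% with quantile normalization, 47.6% with the percentile taken over all probes, 52.8% in the authors' matrix and 82.2% with E1A scaling, which moved the median difference of all probes to 0.26. With that scaling 170 genes (1.23%) were called higher and 29 (0.209%) lower. No member of the neuron, oligodendrocyte, GABA receptor, sodium and calcium channel, vesicle or axon guidance lists was then called lower, and 1 glutamate receptor was. With quantile normalization the lower calls came to 2 neuron markers, 3 oligodendrocyte genes, 4 vesicle genes and 2 sodium and calcium channel genes, with 1 vesicle gene and 1 channel gene of these lists higher. In the authors' matrix 1, 3, 4 and 2 of these lists were lower. A difference is therefore relative to the rest of its array.

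**Figure D4:**
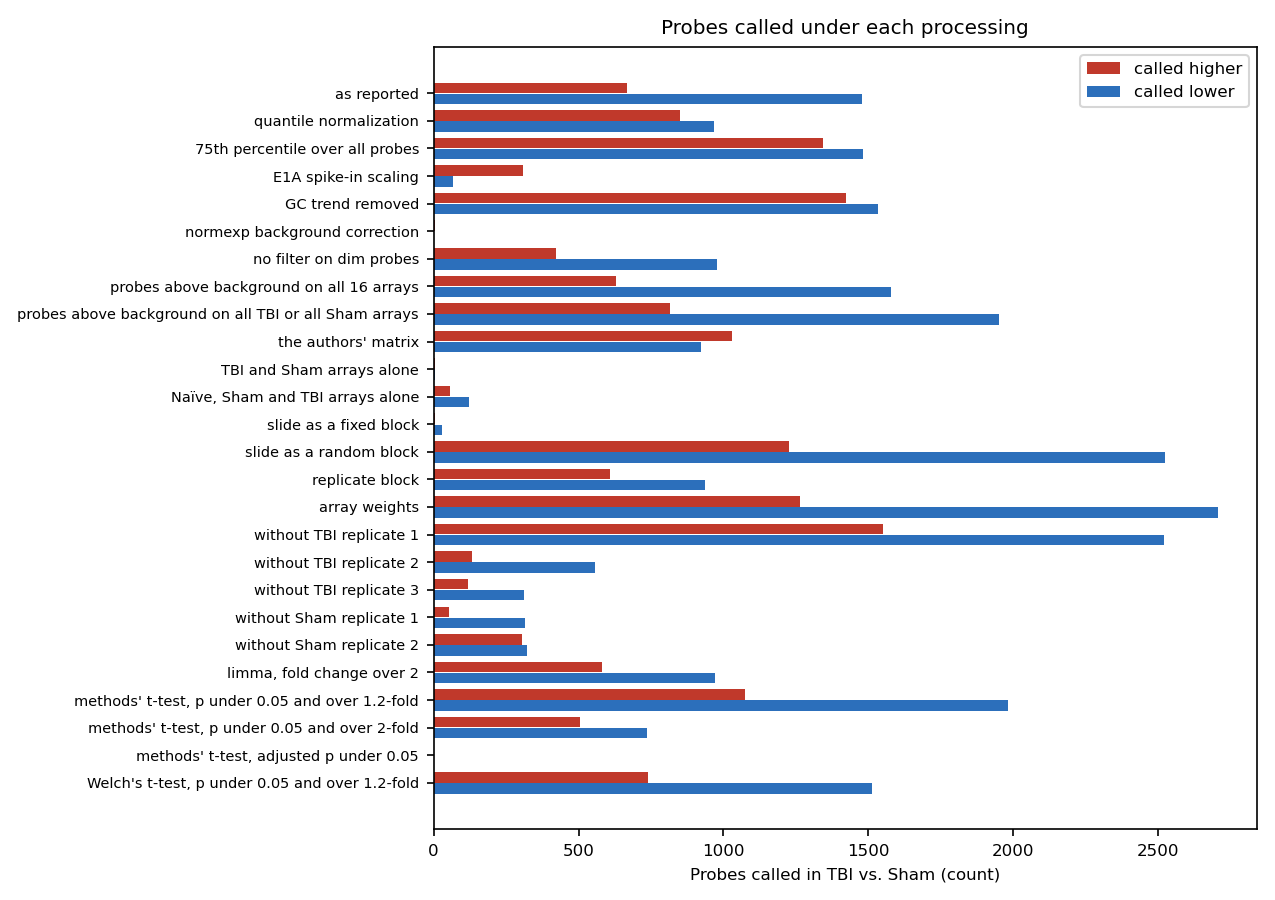
Number of probes called higher and lower in TBI vs. Sham under each processing alternative, on axes of counts. The count as reported is 2146, and it runs from 370 without Sham 1 to 4069 without TBI 1 when single arrays are left out.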

How the data were processed

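RNA of the hippocampus of 16 rats was measured on single-colour arrays with rn4 probe positions. Per the file headers, the deposited intensity of a spot is background subtracted and spatially detrended, with no normalization between arrays. A matrix of the authors gives, for each probe, a linear ratio to the 75th percentile of its array, and it served as an alternative. The kit that amplified each rat's RNA is not stated. There were 0 unused columns of per-sample values.

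Control and outlier spots were left out and the spots of a probe averaged. Intensities were scaled to the 75th percentile of the probes well above background and log2 transformed. Probes well above background on all arrays of at least 1 of 6 groups were kept (22827, of which 22799 gave a test value). One limma model without intercept was fitted to 16 arrays, with 10 residual degrees of freedom, and it gave every adjusted p (Benjamini-Hochberg, two-sided). It was tested on simulated data. Between 16404 and 18245 probes were well above background on the TBI and Sham arrays. Where none of a group's arrays was above background, the fold is a bound: the bright group's mean over the higher of the dim probe and the lowest signal well above background. The number of arrays, 3 and 2, limits the precision. The p-values rest on the spread within all 6 groups, among them drug groups scanned in a second session. TBI and Sham lay on different slides, and the p-values do not account for that difference.

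Members and lists were chosen with earlier results of these data known. Genes were named as the called member with the largest rise and fall of each of 54 lists, and the 10 largest rises and falls outside them, above background on all 5 arrays and without overlap, and other list members are named for their role. Some genes that fit this rule are not reported here. RefSeq gave the promoters. The alternatives were another normalization (quantile, the percentile over all probes, E1A controls, GC trend removed), normexp background correction, other filters, the authors' matrix, fewer groups, slide or replicate number as a block, array weights, the methods' t-test and each rat left out. A lone Sham array was then assumed to vary like the other groups. The tools were R 4.3.3, limma 3.58.1, Python 3.11.15 and matplotlib 3.10.9.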

Additional observations from a re-analysis of the deposited data

How the results depend on the processing

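Leaving out 1 rat at a time gave 370 to 4069 called probes against 2146 with all arrays: 4069 without TBI 1, 689 without TBI 2, 431 without TBI 3, 370 without Sham 1 and 625 without Sham 2. Other counts that moved over 1.5 times were 376 with E1A scaling, 4 with normexp background correction, 1398 with no filter on dim probes, 10 with the TBI and Sham arrays alone, 176 with the Naïve, Sham and TBI arrays alone, 31 with the slide as a fixed block, 3749 with it as a random block and 3971 with array weights. The methods' t-test at an unadjusted p under 0.05 gave 3056 probes over 1.2-fold and 1242 over 2-fold. After Benjamini-Hochberg adjustment, with no fold limit, it gave 1. Limma at an unadjusted p under 0.05, with no fold limit, gave 5933. The cause was not tested, except that fits on fewer groups have fewer arrays by construction. The replicate number as a block gave 1544 probes, 609 higher and 935 lower. The numbers name different rats, the deviations of TBI and Sham arrays of the same number correlated at 0.183 and 0.155 over 2 pairs, and the numbers were not taken as a pairing. With quantile normalization, the percentile over all probes, the GC trend removed and the authors' matrix, 850, 1342, 1424 and 1030 probes were higher and 968, 1480, 1533 and 922 lower.

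Of 208 genes named, 182 were called, and none of these changed sign in an alternative that tested it, except with normexp background correction, under which the differences of Grin2b, Kcnd3, Kcng4, Kcnq5, Rbfox3, Unc5b and Adrb1 were 0.0429, 0.0842, 0.208, 0.0465, 0.137, 0.00945 and 0.342. Small differences of genes not called did change sign, as those of Aqp4, Csf1r, Gap43, Mbp and Sst with E1A scaling, and the filter on all 16 arrays tested 156 of the 208. The test was no longer passed by 181 of the called genes with the slide as a fixed block, 179 with the TBI and Sham arrays alone, 172 with normexp, 157 on the 8 arrays without drug groups, 149 without Sham 1, 112 with E1A scaling, 45 with quantile normalization, 47 with the replicate block and 3 without TBI 1. Depth limits the bounds: a gene with no array of a group above background has no measured level there.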
